A study of Mus musculus with 8 samples.

Results

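The 10 genes described here are chromatin, DNA methylation and metabolic genes that are often mutated in acute myeloid leukaemia, with the addition of Dnmt1, the maintenance DNA methyltransferase. They were taken by symbol from a table of 23293 mouse genes, and all 10 were among the 10854 genes whose average over the libraries reached 1 FPKM (fragments mapped to a gene, scaled to its transcript length and to the size of the library). The libraries hold polyA RNA of bone marrow cells that carry c-Kit, the receptor found on haematopoietic stem and progenitor cells, selected on Cd117 beads from individual mice. There were 8 libraries in 4 genotype groups of 2, with the mouse as the replicate. The combined group carried Mx1-cre, a floxed Smc3 allele and Flt3-ITD. Its genotype is given as Smc3 fl/del Flt3-ITD in one label and as Smc3het in another. The Flt3-ITD group carried Mx1-cre and Flt3-ITD, a tandem duplication inside the Flt3 receptor gene that leaves the kinase active. The Smc3 del/+ group carried Mx1-cre and 1 floxed allele of Smc3, which encodes a core subunit of the cohesin ring. The control group was Smc3 fl/+ without Mx1-cre. All mice had received PIpC, which induces the interferon-responsive Mx1-cre, and cells were taken 4 weeks later. Mx1-cre acts in haematopoietic cells but also in other tissues, and the controls were the only group without it. The question behind the series is whether blood formation, healthy or leukaemic, depends on cohesin dose.

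DNA methylation at CpG sites is set by Dnmt3a, copied at each cell division by Dnmt1, and removed in steps that begin when Tet2 oxidises 5-methylcytosine. Tet2 uses 2-oxoglutarate, the product of Idh1 in the cytosol and of Idh2 in mitochondria; mutant forms of both enzymes turn it into 2-hydroxyglutarate, which inhibits the Tet enzymes. Ezh2 is the catalytic subunit of PRC2, which methylates histone H3 at lysine 27. Asxl1 is a partner of the histone H2A deubiquitinase Bap1, and Bcor belongs to PRC1.1, a complex that ubiquitinates histone H2A. Phf6 is a chromatin protein known to bind the NuRD remodelling complex. Npm1, nucleophosmin, is an abundant nucleolar chaperone of ribosome assembly, and its leukaemia mutations move it to the cytoplasm. The values below are RNA levels of the whole genes and say nothing of mutations.

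Several facts of the libraries bear on all results. In each group the 2 libraries differed from each other, and no gene with a value above 0.01 FPKM was identical between them. Combined replicate 2 stood apart, with 11076 mouse genes listed at 0 against 8878 to 9907 in the other libraries. The SD across genes of the log2 difference between replicates was 0.701 in the combined group, 0.409 in Flt3-ITD, 0.350 in Smc3 del/+ and 0.393 in control. Smc3 itself was at 119 ± 23.3 FPKM in combined libraries, 92.3 ± 3.35 in Flt3-ITD, 134 ± 1.86 in Smc3 del/+ and 115 ± 4.64 in control (SD, n = 2 each). It was thus no lower in libraries labelled with the deletion, so groups are given as labelled. Xist, the RNA of the inactive X chromosome, was at 499.8 to 657 FPKM in combined and control libraries and at no more than 0.936 in the others. Flt3-ITD or Smc3 del/+ against control, and combined against either, thus also set mice of unlike sex pattern against each other. The effect of Flt3-ITD averaged over Smc3 status, with 2 groups on each side, is balanced for it. Neither this effect nor that of the Smc3 deletion averaged over Flt3 status is balanced for Mx1-cre, which only the controls lacked. Combined against control differs in Mx1-cre as well. Read depth is not given by FPKM values.

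Npm1 had the highest level of the 10 in every library and Dnmt3a the lowest. Averaged over the 8 libraries, Npm1 was at 932 FPKM, Dnmt1 at 108 and Ezh2 at 97.4. Idh1 averaged 35.2 FPKM, Idh2 29.6 and Asxl1 28.2. Below them Tet2 averaged 20.8, Phf6 19.8 and Bcor 18.2, and Dnmt3a averaged 5.62. Between neighbours in this order, library values did not overlap between Npm1 and Dnmt1, between Ezh2 and Idh1, and between Bcor and Dnmt3a; all other neighbours overlapped. The ratio of the highest to the lowest library was 2.31 for Npm1, 1.96 for Idh1, 1.84 for Tet2 and 1.83 for Idh2, against 1.25 for Dnmt1 and 1.34 for Bcor.

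**Figure D1:**
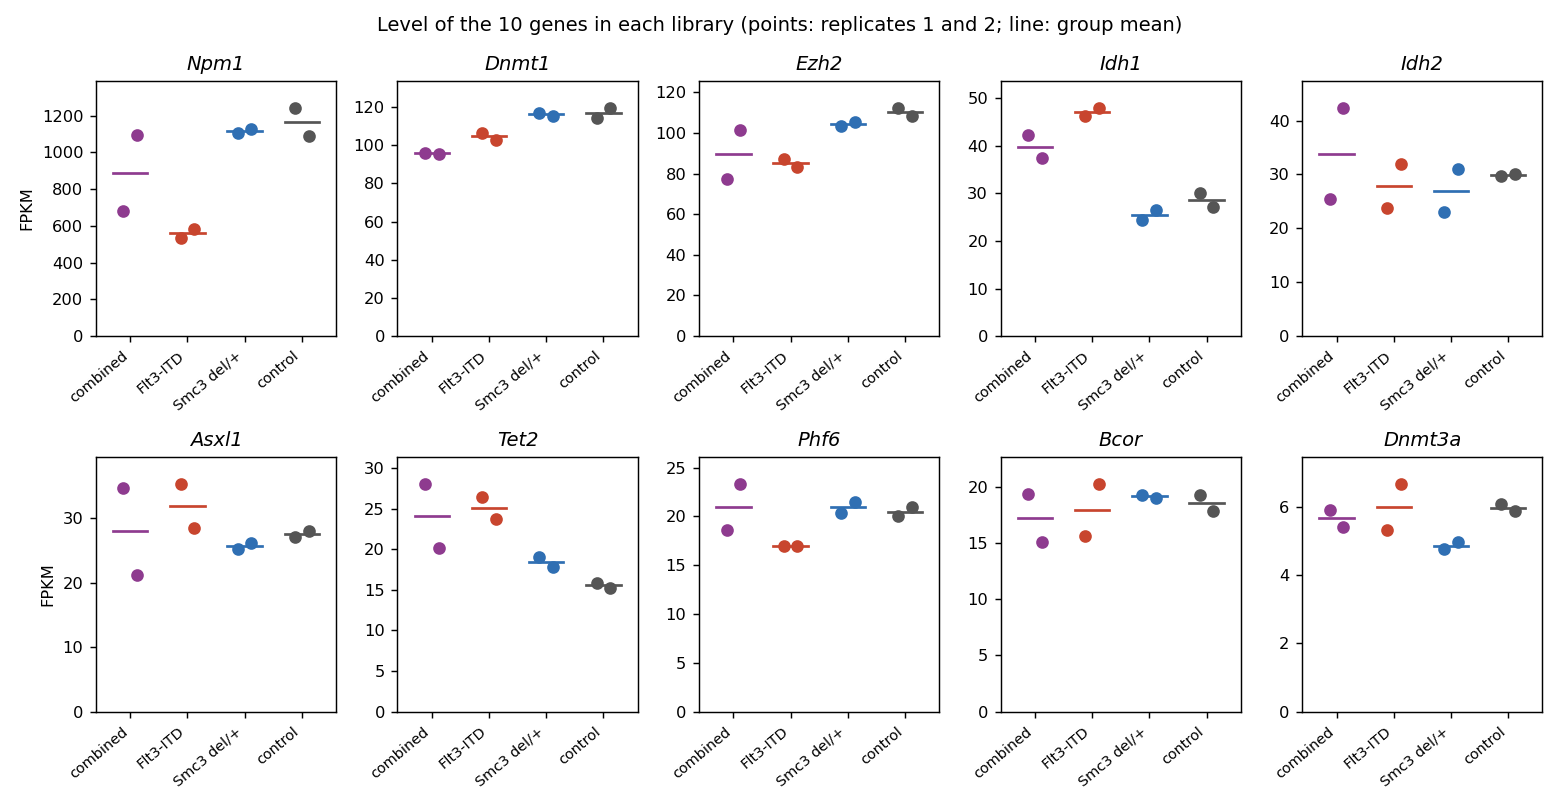
FPKM (linear axis from 0) of each of the 10 genes in the combined, Flt3-ITD, Smc3 del/+ and control groups; points are the 2 libraries of a group and lines the group means. Idh1 and Tet2 are higher in all 4 libraries with Flt3-ITD than in the other 4, while Npm1 is low in 3 of the 4 and at 1093 FPKM in combined replicate 2.

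Flt3-ITD came with higher Idh1 and Tet2 and lower Npm1, and 7 of the 10 genes passed no test in that comparison. Flt3-ITD against control addresses the Flt3 mutation without the Smc3 deletion, though Mx1-cre and the Xist level also differed between these groups. There 2 of the 10 genes rose and 1 fell, against 18.0% of all tested genes called (8.51% higher and 9.50% lower). The libraries of the 2 groups did not overlap in 7 of the 10, against 69.5% of all genes. The median size of the change was 0.23 on the log2 scale over the 10 genes and 0.35 over all tested genes. Averaged over Smc3 status, with 4 libraries against 4, the same 3 genes passed, against 23.8% of all genes. The changes below are fitted on log2(FPKM + 1), and a gene is said to have risen or fallen where limma's adjusted p over all 10854 genes was under 0.05.

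The cells also differed in their make-up of lineages, and in bulk RNA fewer cells of a type and less RNA per cell cannot be told apart. Summed over 12 erythroid markers, the level was 218 to 631 FPKM in combined libraries, 84.5 to 191 in Flt3-ITD, 1822 to 1964 in Smc3 del/+ and 2010 to 2115 in control. In Flt3-ITD against control, 10 of 11 tested erythroid markers, 7 of 8 megakaryocyte markers and 7 of 8 B cell markers fell, with Pax5 and Vpreb2 at 0 in both Flt3-ITD libraries. The 9 neutrophil markers summed to 142800 to 172604 FPKM in combined libraries, 160832 to 229726 in Flt3-ITD, 104767 to 108852 in Smc3 del/+ and 79666 to 86961 in control, and 4 of 9 rose in Flt3-ITD against control. The 7 progenitor markers summed to 3646 to 3821 FPKM in combined libraries and 3824 to 4575 in Flt3-ITD. Their sum was 3349 to 3542 in Smc3 del/+ and 3123 to 3124 in control. Most of each sum was Mpo, with group means of 3305, 3753, 3019 and 2669 FPKM in the same order. Of the 7, 1 fell in Flt3-ITD against control, Gata2. The 8 monocyte and macrophage markers summed to 1963 to 2357 FPKM in combined libraries and 2807 to 2973 in Flt3-ITD. Their sum was 1304 to 1485 in Smc3 del/+ and 1479.8 to 1508 in control. Most of each sum was Ly6c2, with group means of 1978, 2751, 1278 and 1370 FPKM in the same order. In Flt3-ITD against control 1 rose, Ly6c2, and 3 fell, C1qa, C1qb and C1qc. The 5 T cell markers summed to no more than 4.09 FPKM in any library, and none was tested. Kit, used for the selection, was at 40.1 and 37.4 FPKM in combined libraries, 48.1 and 57.6 in Flt3-ITD, 49.5 and 48.9 in Smc3 del/+, and 60.1 and 54.9 in control. In the combined group against control Kit (-0.56, limma adjusted p = 0.0391) and Gata2 (-1.13, adjusted p = 0.0494) fell, and Cd34 rose (0.73, adjusted p = 0.0337). There 11.8% of all genes were called. The part of these shifts in the changes of the 10 genes was not tested.

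Of the DNA methylation genes, Dnmt1 was somewhat lower in every library with Flt3-ITD, and Dnmt3a passed no test on the raw FPKM values. Dnmt1 was at 96.2 and 95.3 FPKM in combined libraries, 107 and 103 in Flt3-ITD, 117 and 115 in Smc3 del/+, and 114 and 119 in control. All 4 carriers of Flt3-ITD lay below the other 4 libraries, and both combined libraries lay below both Flt3-ITD libraries. Non-overlap of this kind was seen in 4 of the 10 genes (Idh1, Tet2, Dnmt1 and Ezh2) and in 27.2% of all genes. The fitted log2 difference of Dnmt1 was -0.22 ± 0.0813 (SE) averaged over Smc3 status, which did not pass (limma adjusted p = 0.0857). Without combined replicate 2 it was -0.20 and passed (adjusted p = 0.0444), in a fit that called 43.3% of all genes. Dnmt3a, the de novo enzyme and the least expressed of the 10, was at 5.92 and 5.42 FPKM in combined libraries, 5.33 and 6.67 in Flt3-ITD, 4.75 and 4.96 in Smc3 del/+, and 6.07 and 5.87 in control. Both Smc3 del/+ libraries lay below all others, with a log2 difference from control of -0.25 ± 0.181 that did not pass (limma adjusted p = 1). An antisense gene overlaps Dnmt3a, and use of strand in counting is not known, which makes its value uncertain. Averaged over Smc3 status, 23.8% of all genes were called (median -0.01). Of 11 tested genes of DNA methylation, 2 then fell and none rose (median -0.05). These were Lig1, the replicative DNA ligase (-0.48 ± 0.0819, limma adjusted p = 0.00586), and Uhrf1, which guides Dnmt1 to newly copied DNA (-0.51 ± 0.0926, adjusted p = 0.00726). In Flt3-ITD against control 18.0% of all genes were called. Lig1 alone of the list passed, at -0.46 on the log2 scale (limma adjusted p = 0.0338, list median -0.12). This call was lost without any 1 of the Flt3-ITD, Smc3 del/+ or control libraries.

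Ezh2, like Dnmt1, was lower in every library with Flt3-ITD. It was at 77.5 and 102 FPKM in combined libraries, 87.4 and 83.1 in Flt3-ITD, 104 and 105 in Smc3 del/+, and 112 and 109 in control. The 4 carriers lay below the other 4 libraries, with combined replicate 2 close under the lowest of them. Averaged over Smc3 status the log2 difference was -0.30 ± 0.105 (SE), which did not pass (limma adjusted p = 0.0697). Without combined replicate 2, Ezh2 was called lower at -0.39 (adjusted p = 0.00242), among the 43.3% of all genes called in that fit. Antisense genes overlap Ezh2 as well. The Ezh2 promoter and 1 of the 3 annotated Dnmt1 promoters are shown because they alone among the 8 members with a promoter sequence hold an E2F motif, the element bound by the E2F factors that drive S phase genes. The motifs searched were TTTCGCGC and TTTGGCGC on both strands, and matches are in capitals. The sequences run 5′ to 3′ in the direction of transcription, from RefSeq on build GRCm38.p6; that of Ezh2 is chr6:47594981-47595280 and that of Dnmt1 is chr9:20952574-20952873, both on the minus strand.
Ezh2 promoter: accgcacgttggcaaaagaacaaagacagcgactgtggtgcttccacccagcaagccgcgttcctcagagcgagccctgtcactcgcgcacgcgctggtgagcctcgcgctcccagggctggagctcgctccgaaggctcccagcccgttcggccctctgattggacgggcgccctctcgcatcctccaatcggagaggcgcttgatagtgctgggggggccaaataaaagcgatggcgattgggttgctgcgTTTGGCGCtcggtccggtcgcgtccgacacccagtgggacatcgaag
Dnmt1 promoter: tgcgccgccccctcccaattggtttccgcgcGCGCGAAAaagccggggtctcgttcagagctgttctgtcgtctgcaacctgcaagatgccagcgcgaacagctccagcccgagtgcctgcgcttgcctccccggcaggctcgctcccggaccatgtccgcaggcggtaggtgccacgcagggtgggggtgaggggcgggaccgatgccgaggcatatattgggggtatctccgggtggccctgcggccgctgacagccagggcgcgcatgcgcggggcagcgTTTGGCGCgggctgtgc
The Ezh2 match begins 3 bases after the first transcribed base. Of the Dnmt1 matches, 1 begins 219 bases before the start and 1 begins 33 bases after it. Of 32851 promoters of this length, 0.813% hold such a match, and of 27025 genes 0.929% do, against 6 of 17 S phase genes (Mcm3, Mcm5, Mcm6, Mcm7, Cdt1 and Pola1). An E-box, CACGTG, is in 7.15% of promoters and, among the members, in 1 of 3 promoters of Dnmt3a. A match is a description of these letters and does not show binding.

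The S phase genes moved in the same direction as Dnmt1 and Ezh2. Of 22 tested, 14 fell averaged over Smc3 status and none rose, with a median of -0.46 against -0.01 for all genes. The 4 of smallest p were Ccne1, cyclin E1 (-1.42 ± 0.162), Cdc6, a loader of the replicative helicase (-0.83 ± 0.12), Mcm2, a subunit of that helicase (-0.64 ± 0.104), and Cdt1, its second loader (-0.66 ± 0.112), with limma adjusted p of 0.00148 to 0.00582. Of the 22, 10 fell in Flt3-ITD against control (median -0.52), and in the combined group against Smc3 del/+ 2 fell, Ccne1 and Cdc6 (median -0.46). Of all genes, 23.8% were called in the averaged fit, 18.0% in Flt3-ITD against control and 5.44% in the combined group against Smc3 del/+. With 1 library left out, the averaged count ran from 8 (without Flt3-ITD replicate 2 or control replicate 2, where 14.1% and 11.6% of all genes were called) to 21 (without combined replicate 2, where 43.3% were), and the count in Flt3-ITD against control from 1 to 19. Set against these medians, the averaged differences of Dnmt1 and Ezh2 were smaller in size.

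Tet2 rose with Flt3-ITD. It was at 28.0 and 20.1 FPKM in combined libraries, 26.4 and 23.7 in Flt3-ITD, 19.0 and 17.8 in Smc3 del/+, and 15.8 and 15.3 in control. All 4 carriers lay above the other 4 libraries, though combined replicate 2 stood only slightly above the higher Smc3 del/+ library. The log2 fold change in Flt3-ITD against control was 0.66 ± 0.177 (SE; limma adjusted p = 0.0412), and averaged over Smc3 status it was 0.50 ± 0.13 (adjusted p = 0.0251). The first call was lost when any Flt3-ITD, Smc3 del/+ or control library was left out (adjusted p = 0.0880 to 0.214), with fold changes of 0.58 to 0.73. The averaged call was lost in 6 of the 8 such fits, with fold changes of 0.44 to 0.63 over all 8. An antisense gene overlaps Tet2, so that its value is uncertain where strand was not used. Of the other Tet dioxygenases, Tet1 had a log2 difference of -0.05 (limma adjusted p = 0.908) and Tet3 of 0.22 (adjusted p = 0.571) in Flt3-ITD against control, and neither passed. Of 8 tested genes of DNA demethylation, Tet2 alone rose and Apex1 alone fell in Flt3-ITD against control (median -0.02). In that comparison 18.0% of all genes were called. Apex1, the abasic site endonuclease that acts after base excision, had a log2 fold change of -0.999 ± 0.219 (limma adjusted p = 0.0216). The genes most like Tet2 over the 8 libraries, by root mean square difference of centred log2 values among 10854 genes, were Dock11 (0.0413), Tbc1d1 (0.0495) and Phf21a (0.0518). Dock11, which activates the GTPase Cdc42, was at 59.5 and 45.5 FPKM in combined libraries, 58.2 and 51.6 in Flt3-ITD, 42.7 and 40.002 in Smc3 del/+, and 32.8 and 33.3 in control.

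Idh1 had the smallest adjusted p of the 10 genes in each comparison of Flt3-ITD, and Idh2 showed no difference beyond its spread. Idh1 was at 42.3 and 37.4 FPKM in combined libraries, 46.4 and 47.9 in Flt3-ITD, 24.4 and 26.5 in Smc3 del/+, and 30.0 and 27.0 in control. The 4 carriers lay well above the other 4 libraries, and the combined libraries lay below both Flt3-ITD libraries. Idh1 rose by 0.71 ± 0.132 on the log2 scale in Flt3-ITD against control (SE; limma adjusted p = 0.0130). It rose by 0.63 ± 0.132 (adjusted p = 0.0391) in the combined group against Smc3 del/+, the other comparison of Flt3-ITD within 1 Smc3 status. It was the only one of the 10 genes called there, against 5.44% of all genes. That call was lost without any 1 of the Flt3-ITD, Smc3 del/+ or control libraries (adjusted p = 0.0751 to 0.283) and with those 2 groups fitted alone (adjusted p = 0.217). Averaged over Smc3 status it rose by 0.67 ± 0.0923 (adjusted p = 0.00263), a call kept in all 8 fits without 1 library (0.63 to 0.71, adjusted p = 0.000402 to 0.0161). The call in Flt3-ITD against control was lost without any 1 of the Flt3-ITD or control libraries (adjusted p = 0.0651 to 0.109, fold changes of 0.64 to 0.78), where 1 group is left with a lone library. The genes most like Idh1 were Fchsd1 (0.0946), Jup (0.0961), which encodes plakoglobin, and Kctd20 (0.101), all farther from it than the nearest genes of Tet2 were from Tet2. Kctd20 was at 65.7 and 60.8 FPKM in combined libraries, 69.3 and 75.5 in Flt3-ITD, 43.7 and 46.9 in Smc3 del/+, and 43.2 and 41.0 in control.

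Idh2, the mitochondrial enzyme, was at 25.4 and 42.3 FPKM in combined libraries, 23.7 and 32.0 in Flt3-ITD, 23.1 and 30.9 in Smc3 del/+, and 29.7 and 30.1 in control. Replicate 2 was above replicate 1 in every group, and all groups overlapped. Its averaged log2 difference was 0.09 ± 0.189 (SE; limma adjusted p = 0.769, unadjusted 95% interval -0.34 to 0.52). The ratio of Idh1 to Idh2 within a library does not depend on the scale of the library. It was 1.66 and 0.885 in combined libraries, 1.95 and 1.498 in Flt3-ITD, 1.06 and 0.857 in Smc3 del/+, and 1.01 and 0.8997 in control. Combined replicate 2 fell among the libraries without Flt3-ITD and the other 3 carriers lay above them. The geometric mean was 1.44 over the 4 carriers and 0.953 over the other 4 libraries, a difference that did not pass a two-sided exact permutation test (p = 0.114, smallest possible 0.0286). This ratio was chosen after its values were seen.

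Around Idh1 and Idh2, most genes of isocitrate and 2-oxoglutarate metabolism that changed went down with Flt3-ITD. Of 17 tested, 2 rose and 4 fell in Flt3-ITD against control (median -0.33, against -0.01 for all genes). There 18.0% of all genes were called. Fewer of the 17 passed without any 1 of the Flt3-ITD, Smc3 del/+ or control libraries. Averaged over Smc3 status, 2 rose and 8 fell (median -0.30), where 23.8% of all genes were called. With 1 library left out, the averaged counts ran from 1 to 2 higher and from 2 to 8 lower. The other gene that rose was Glud1, glutamate dehydrogenase, which makes 2-oxoglutarate from glutamate. It was at 73.3 and 56.4 FPKM in combined libraries, 56.0 and 57.9 in Flt3-ITD, 48.6 and 46.0 in Smc3 del/+, and 39.3 and 38.6 in control (averaged log2 fold change 0.49 ± 0.103, limma adjusted p = 0.0126). Aco1, the cytosolic aconitase that makes isocitrate and also binds RNA in iron control, fell by 0.74 ± 0.115 averaged over Smc3 status (limma adjusted p = 0.00407), and Slc25a1, the mitochondrial citrate carrier, by 0.77 ± 0.158 (adjusted p = 0.0110). D2hgdh, which clears the D-2-hydroxyglutarate made by mutant Idh enzymes, differed by 0.10 ± 0.207 in Flt3-ITD against control and did not pass (adjusted p = 0.779). Idh3a, the catalytic subunit of the NAD-dependent isocitrate dehydrogenase, was at 21.8 and 43.9 FPKM in combined libraries, 19.5 and 20.2 in Flt3-ITD, 41.8 and 42.7 in Smc3 del/+, and 42.8 and 40.02 in control. It was low in 3 of the 4 carriers and higher in combined replicate 2 than in any library without Flt3-ITD.

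**Figure D2:**
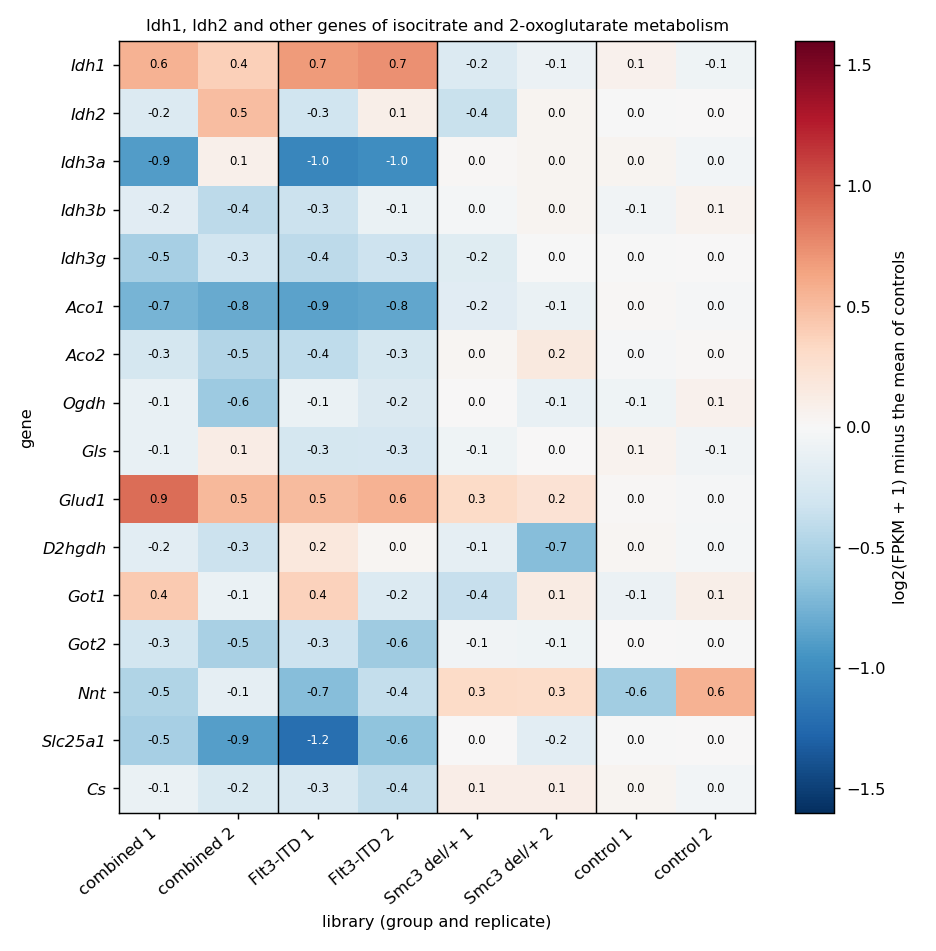
Difference of log2(FPKM + 1) from the control mean (colour and number) for 16 genes of isocitrate and 2-oxoglutarate metabolism (rows) in the 8 libraries (columns). Idh1 and Glud1 are above control in all 4 libraries with Flt3-ITD, where Aco1 and Slc25a1 are below it, while Idh2 has both signs.

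Npm1 fell in Flt3-ITD libraries and was split between the 2 combined libraries. It was at 678 and 1093 FPKM in combined libraries, 536 and 585 in Flt3-ITD, 1106 and 1129 in Smc3 del/+, and 1239 and 1089 in control. Both Flt3-ITD libraries lay far below the Smc3 del/+ and control libraries, whereas combined replicate 2 lay just above the lower control. The log2 fold change in Flt3-ITD against control was -1.05 ± 0.233 (SE; limma adjusted p = 0.0226), and averaged over Smc3 status it was -0.71 ± 0.198 (adjusted p = 0.0324). The first call was lost without any Flt3-ITD, Smc3 del/+ or control library (adjusted p = 0.0581 to 0.164), with fold changes of -1.14 to -0.96. The averaged fold change ran from -0.92 without combined replicate 2 (adjusted p = 0.000528) to -0.61 without control replicate 1 (adjusted p = 0.107), and the call was lost in 7 of the 8 fits without 1 library. Processed copies of Npm1 in the genome make its level uncertain.

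The nucleolar genes around Npm1 fell together. Of 16 tested genes of the nucleolus and ribosome assembly, Npm1 included, 11 fell in Flt3-ITD against control and none rose (median -0.82, against -0.01 for all genes). Averaged over Smc3 status all 16 fell (median -0.71). Of all genes, 18.0% were called in Flt3-ITD against control and 23.8% in the averaged fit. With 1 library left out, the averaged count ran from 7 (without control replicate 2, where 11.6% of all genes were called) to 16 (without combined replicate 2, where 43.3% were). The count in Flt3-ITD against control then ran from 0, without Flt3-ITD replicate 1 or either control, to 15, without either combined library. The 4 of smallest p in Flt3-ITD against control were Ddx21, a nucleolar RNA helicase (-1.05 ± 0.167), Fbl, fibrillarin, which methylates ribosomal RNA (-0.86 ± 0.147), Ncl, nucleolin (-0.97 ± 0.193), and Polr1b, a subunit of RNA polymerase I (-0.95 ± 0.196), with limma adjusted p of 0.00763 to 0.0180. Ncl was at 161 and 244 FPKM in combined libraries, 146 and 150 in Flt3-ITD, 283 and 282 in Smc3 del/+, and 299.98 and 280.05 in control. Like Npm1 it was lower in combined replicate 1 than in replicate 2, but here both lay under the lowest library without Flt3-ITD. Polr1b was at 5.20 and 3.86 FPKM in combined libraries, 5.53 and 6.47 in Flt3-ITD, 9.39 and 10.3 in Smc3 del/+, and 13.8 and 11.4 in control. It was low in both combined libraries and lowest in replicate 2, the reverse of Npm1. When the combined group was set against Smc3 del/+, Polr1b (-0.98, adjusted p = 0.0341) and Wdr12 (-0.76, adjusted p = 0.0436), a ribosome assembly factor, were the 2 of 16 that fell, and 13 fell without combined replicate 2. The genes most like Npm1 over the 8 libraries were Prps1l3 (0.0705), Ncl (0.0817) and Idh3a (0.0837), of which Prps1l3 has a near-identical relative and is uncertain.

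**Figure D3:**
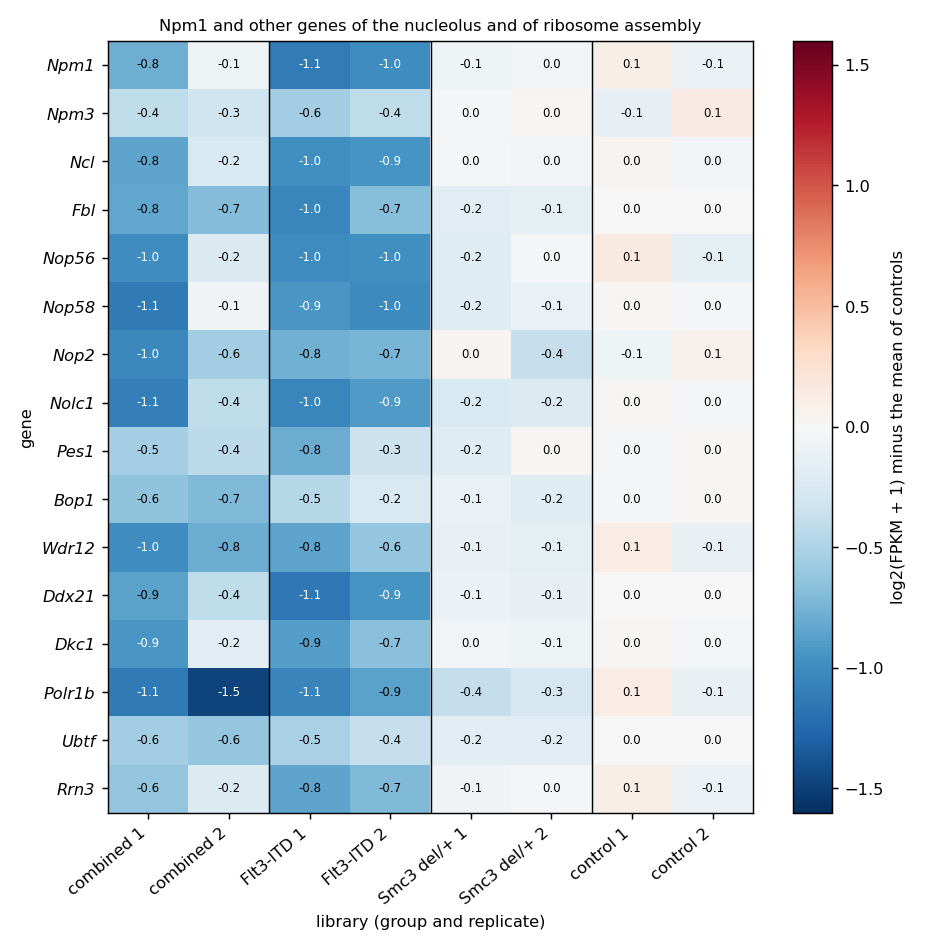
Difference of log2(FPKM + 1) from the control mean (colour and number) for 16 nucleolar and ribosome assembly genes (rows) in the 8 libraries (columns). All rows are below control in both Flt3-ITD libraries and in combined replicate 1, and Nop58 and Npm1 are the rows nearest to control in combined replicate 2.

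With all 8 libraries no gene of PRC2 or of the Asxl1 and Bap1 group passed on the raw FPKM values. Of 11 tested PRC2 genes none was called in Flt3-ITD against control (median -0.10) or averaged over Smc3 status (median -0.11). The 2 of smallest averaged p were Ezh1, the alternative catalytic subunit, at 0.42 ± 0.143 (limma adjusted p = 0.0660), and Ezh2 itself. Ezh1 was at 14.1 and 9.08 FPKM in combined libraries, 11.5 and 11.4 in Flt3-ITD, 8.23 and 8.94 in Smc3 del/+, and 8.10 and 7.90 in control. It lay above all libraries without Flt3-ITD in the 4 carriers, where Ezh2 lay below them, and neither difference passed. Phf1, a PRC2 accessory protein, had a log2 difference of 0.97 ± 0.284 in Flt3-ITD against control (adjusted p = 0.0537).

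Asxl1 was at 34.7 and 21.2 FPKM in combined libraries, 35.3 and 28.5 in Flt3-ITD, 25.3 and 26.1 in Smc3 del/+, and 27.0 and 28.0 in control. The combined libraries held both a high and the lowest value of all 8, so that the groups overlapped. The averaged log2 difference was 0.14 ± 0.153 (SE; limma adjusted p = 0.548), and it was 0.29 and passed without combined replicate 2 (adjusted p = 0.0479), where 43.3% of all genes were called. A gene of the opposite strand overlaps Asxl1 and is itself in the table. None of 10 tested genes of the Asxl1 and Bap1 group was called (median 0.08 in Flt3-ITD against control and 0.02 averaged). In the first comparison Foxk1, a transcription factor that binds Bap1, had 0.44 ± 0.181 (adjusted p = 0.132), and Mbd6 0.56 ± 0.288 (adjusted p = 0.215).

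Bcor and Phf6, both X-linked, passed no test on the raw FPKM values with all 8 libraries. Bcor was at 19.3 and 15.1 FPKM in combined libraries, 15.6 and 20.2 in Flt3-ITD, 19.3 and 19.0 in Smc3 del/+, and 19.2 and 17.8 in control. Its libraries were spread widest in the groups with Flt3-ITD, and all groups overlapped. Phf6 was at 18.6 and 23.3 FPKM in combined libraries, 17.0 and 17.0 in Flt3-ITD, 20.4 and 21.5 in Smc3 del/+, and 20.0 and 20.9 in control. The Flt3-ITD libraries were the lowest of all, with a log2 difference from control of -0.26 ± 0.15 that did not pass (limma adjusted p = 0.277). The libraries of Flt3-ITD and Smc3 del/+ shared a low Xist level, and Phf6 did not follow it. Kdm6a, an X-linked histone demethylase that escapes X inactivation, did: it was at 32.3 and 22.5 FPKM in combined libraries, 16.3 and 16.2 in Flt3-ITD, 17.6 and 19.4 in Smc3 del/+, and 29.6 and 26.7 in control. It was the only one of 15 other leukaemia genes called in Flt3-ITD against control (-0.75 ± 0.184, limma adjusted p = 0.0311). There the list median was 0.10, and 18.0% of all genes were called. Averaged over Smc3 status Kdm6a differed by -0.11 and did not pass (limma adjusted p = 0.772). Srsf2, a splicing factor, was then the only call of the list (-0.30 ± 0.0916, adjusted p = 0.0427), where 23.8% of all genes were called.

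Some partners of Bcor passed the test, in a share near that of all genes. Their calls in Flt3-ITD against control depended on single libraries. Fewer passed without any 1 of the Flt3-ITD, Smc3 del/+ or control libraries. Of 11 tested PRC1.1 genes, 2 rose and 1 fell in Flt3-ITD against control (median 0.01), where 18.0% of all genes were called. The averaged fit had 1 higher and 2 lower (median -0.01), against 23.8% of all genes, and none was called in the combined group against control or against Smc3 del/+. Bcl6, the repressor that recruits Bcor, was at 26.5 and 14.1 FPKM in combined libraries, 30.0 and 21.0 in Flt3-ITD, 11.3 and 8.05 in Smc3 del/+, and 8.67 and 10.4 in control. All 4 carriers lay above the other libraries (log2 fold change 1.31 ± 0.315 in Flt3-ITD against control, limma adjusted p = 0.0291, and 1.13 ± 0.22 averaged, adjusted p = 0.00899). Rybp rose by 0.59 ± 0.15 in Flt3-ITD against control (adjusted p = 0.0352), and Kdm2b, which brings PRC1.1 to CpG islands, fell by 0.70 ± 0.168 (adjusted p = 0.0292). Of 12 tested genes of the Phf6 and NuRD group, Mta3 alone fell in Flt3-ITD against control (-1.10 ± 0.184, adjusted p = 0.00903; list median -0.23). Averaged, Mta3 (-0.74) and Mta2 (-0.31) fell.

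By the same measure of likeness over the 8 libraries, the nearest genes of the other 7 members lay at 0.0330 to 0.0657. Dnmt1 was nearest to Ipo9 (0.0330), an importin. Ezh2 had Srsf1 (0.0428), Eif3a (0.0469) and Hells (0.0477) as its nearest genes; Hells is a chromatin remodeller needed for DNA methylation. Hells was at 59.1 and 78.1 FPKM in combined libraries, 63.1 and 61.7 in Flt3-ITD, 74.5 and 77.5 in Smc3 del/+, and 77.2 and 81.2 in control. Dnmt3a was nearest to Chd3 (0.0483), a NuRD helicase, and Phf6 to Armc10 (0.0467). Asxl1 was nearest to Atxn7 (0.0657), Idh2 to the zinc transporter gene Slc39a3 (0.0534) and Bcor to Glt25d1 (0.0579).

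The label of the Smc3 deletion came with no called change of the 10 genes. Smc3 del/+ against control addresses the loss of 1 Smc3 allele without Flt3-ITD, though Mx1-cre and the Xist level also differed between these groups. There limma called none of the 10 and 0.00921% of all genes, or 1 gene. At an unadjusted p under 0.05 it was again 0 of the 10, and 494 genes in all. The largest differences were Dnmt3a at -0.25 ± 0.181 and Tet2 at 0.23 ± 0.177 (SE). Averaged over Flt3 status, 0 of the 10 and 0.00% of all genes were called by limma, with 0 of the 10 and 525 genes at an unadjusted p under 0.05. The 95% intervals of this averaged difference were -0.25 to 0.12 for Dnmt1, -0.41 to 0.01 for Idh1 and -0.17 to 0.73 for Npm1. A p that misses the threshold does not show that the levels were alike.

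In the combined group against control, limma called none of the 10, against 11.8% of all genes, and 3 of the 10 had an unadjusted p under 0.05. Tet2 had a log2 difference of 0.58 ± 0.177 (SE; adjusted p = 0.0752), Idh1 of 0.47 ± 0.132 (adjusted p = 0.0621) and Dnmt1 of -0.28 ± 0.111 (adjusted p = 0.143). Leaving out combined replicate 2 changed these calls: Tet2 (0.81, adjusted p = 0.00470) and Idh1 (0.55, adjusted p = 0.0140) were then higher, and Ezh2 (-0.51, adjusted p = 0.00931) and Npm1 (-0.78, adjusted p = 0.00623) lower, where 31.6% of all genes were called. The same omission in the combined group against Smc3 del/+ gave the same 4 genes with the same signs, and 25.1% of all genes.

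In the combined group against Flt3-ITD, the comparison that asks what the Smc3 deletion adds to the Flt3 mutation, limma called none of the 10, against 0.286% of all genes. Npm1 had the largest difference, 0.62 ± 0.233, and was the 1 gene of the 10 with an unadjusted p under 0.05 (0.0302, adjusted p = 0.396). Without combined replicate 1, Npm1 was called higher at 0.96 (adjusted p = 0.00444), Phf6 higher at 0.44 (adjusted p = 0.0354) and Asxl1 lower at -0.56 (adjusted p = 0.0288), where 29.9% of all genes were called; without combined replicate 2 none of the 10 was. The interaction of Flt3-ITD and the Smc3 deletion, which follows the Xist pattern in full, was called for none of the 10 and for 0.0369% of all genes (4 genes), and 0 of the 10 had an unadjusted p under 0.05. The interaction of Npm1 was 0.68 ± 0.33 (adjusted p = 0.587), and 1.02 without combined replicate 1 (adjusted p = 0.0138), where 18.8% of all genes were called.

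**Figure D4:**
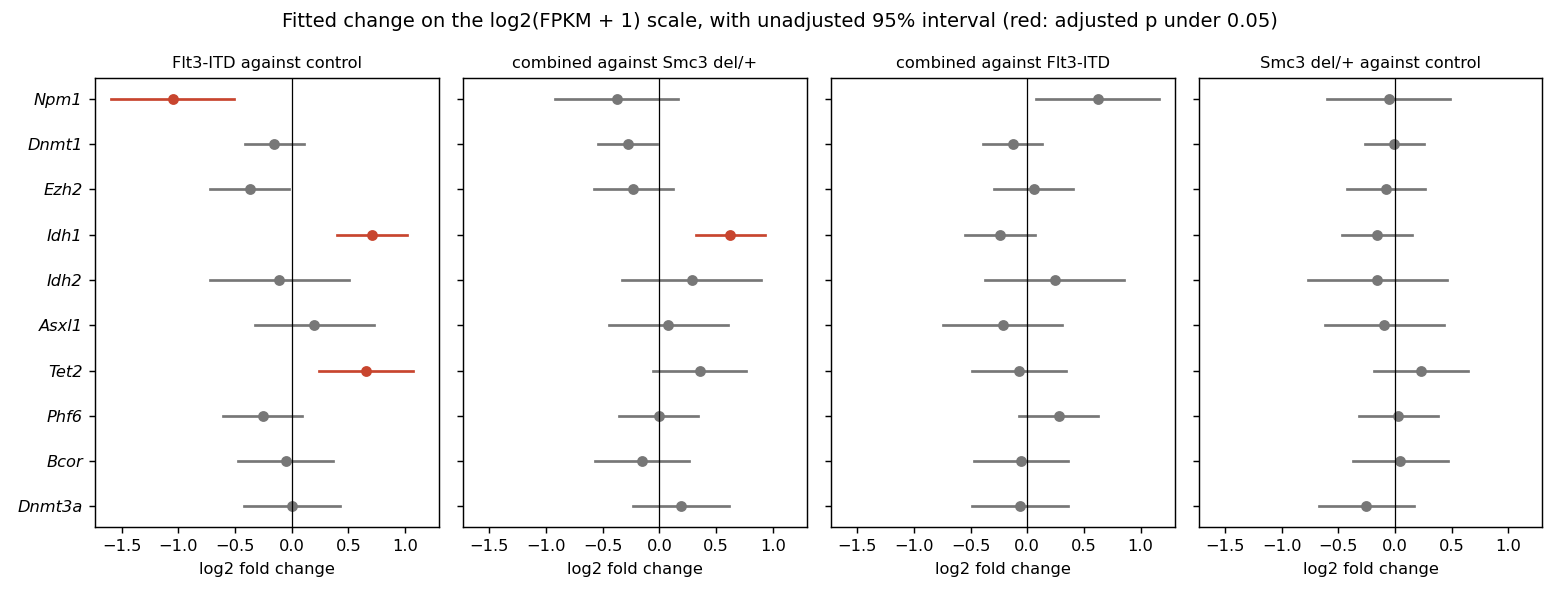
Fitted log2 fold change of the 10 genes (rows) with unadjusted 95% intervals in 4 comparisons; red marks an adjusted p under 0.05. Npm1, Idh1 and Tet2 are red in Flt3-ITD against control and Idh1 in the combined group against Smc3 del/+, with none in the other 2 comparisons.

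The results above rest on the authors' raw FPKM values. The authors also deposited a normalized table, in which the median difference of all genes between groups lay further from 0. Averaged over Smc3 status, the median log2 difference of all genes with Flt3-ITD was -0.44 there, against -0.01 in the table used above. Idh1 was then at 0.23 (adjusted p = 0.166) and Tet2 at 0.06 (adjusted p = 0.762), neither of which passed, and both lay above the median, by 0.67 and 0.50. Npm1 was at -1.11 (adjusted p = 0.00166) and 0.67 below the median. Dnmt1 (-0.64), Ezh2 (-0.73), Phf6 (-0.57) and Bcor (-0.54) were also called lower there. In that fit 46.2% of all genes were called, higher or lower. In Flt3-ITD against control the median was -0.58, and Idh1 at 0.18 and Tet2 at 0.11 did not pass. Npm1 was at -1.51 (limma adjusted p = 0.00104), and Dnmt3a, Dnmt1, Ezh2 and Phf6 were called lower. There 44.1% of all genes were called, higher or lower. In the combined group against control, where the median was -0.67, Idh1 (-0.24) and Tet2 (-0.13) were below 0, without passing. All 16 nucleolar and all 22 S phase genes fell in both comparisons of Flt3-ITD with this table, where the medians of all genes were themselves -0.44 and -0.58. In both tables Idh1 and then Tet2 had the highest averaged differences of the 10 genes and Npm1 the lowest.

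**Figure D5:**
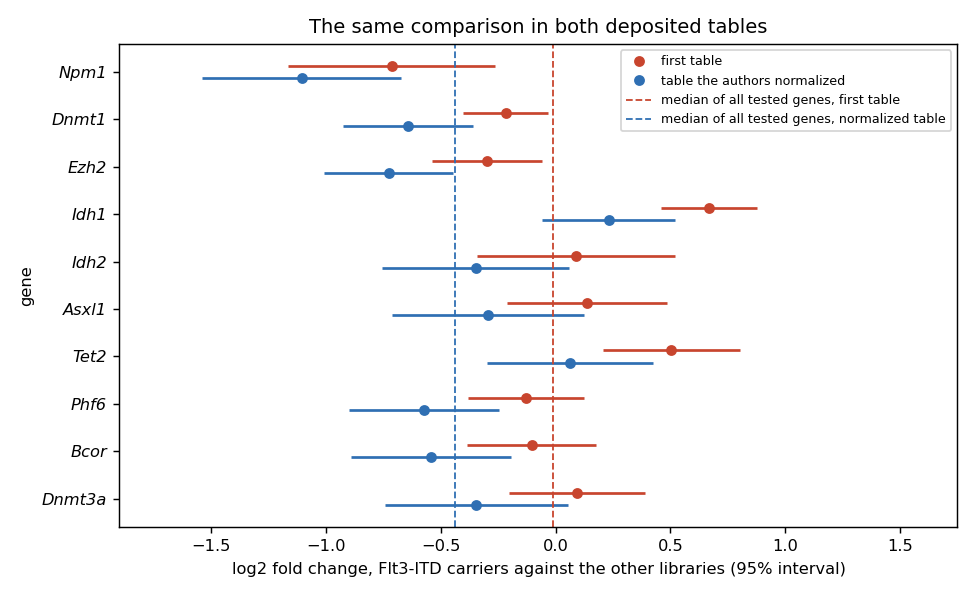
Log2 fold change of the 10 genes (rows) in the 4 libraries with Flt3-ITD against the other 4, averaged over Smc3 status, from both deposited tables with unadjusted 95% intervals; dashed lines are the medians of all tested genes, -0.01 and -0.44. In both tables Idh1 and Tet2 lie right of the dashed line and Npm1 left of it, while the intervals of Idh1 and Tet2 from the normalized table include 0.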

How the data were processed

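RNA of c-Kit-positive bone marrow cells from 8 mice was sequenced with a directional kit, per the labels' protocols. The authors deposited FPKM values per gene in 2 tables, 1 raw and 1 normalized. TopHat, Cufflinks 2.0.0 and build mm9 are named in the submitters' processing notes; an annotation and the use of strand, not given in the sources used here, could shift levels of overlapping genes. FPKM values do not give the depth in reads, so no counting interval was computed.

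The raw table was used, without its 92 spike-in rows. Genes averaging 1 FPKM or more were tested on log2(FPKM + 1), which understates changes of low genes, with limma 3.58.1 (R 4.3.3, trended moderation) and Benjamini-Hochberg adjustment over 10854 genes at a threshold of 0.05. The 8 libraries entered 1 fit of 4 group means (4 residual degrees of freedom); averaged effects came from an additive fit (5). The procedure was tested on simulated data, drawn with the same spread of a gene in all 8 libraries. The measured spread was larger in the combined group, which the simulation did not include. Alternatives were a pseudocount of 0.1, no filter, the normalized table, equal library medians, the replicate number as a block, only the groups compared, and each library left out.

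From each list of related genes, up to 4 called genes of smallest p were named, or 2 as values where none was called; other genes with values were chosen after their values were seen. The members and lists were chosen with earlier results of these data known. Likeness of genes was the root mean square difference of centred log2 values. Promoters (250 bases before to 50 after a start) came from RefSeq, build GRCm38.p6, with no coordinate carried over from mm9; 8 of the 10 members matched. Some listed genes enter the counts but are not reported here by name. The planned comparison of protein sequences was not made.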

Additional observations from a re-analysis of the deposited data

How the results depend on the processing

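The numbers of the 10 genes called depended on single libraries and on the table used, and so did the share of all genes called. Of the 10, 2 genes were higher and 1 lower in Flt3-ITD against control; without a filter this was 1 higher and 0 lower, with the normalized values 0 higher and 5 lower, with only those groups fitted 2 lower, and with 1 library left out 0 to 2 higher and 0 to 2 lower. For the averaged effect of Flt3-ITD, 2 were higher and 1 lower; without a filter 0 were lower, with the normalized values 0 were higher and 5 lower, and with 1 library left out 1 to 3 were higher and 0 to 3 lower. For the combined group against control, with 0 in either direction, equal library medians gave 2 higher, the normalized values 6 lower, and leaving out 1 library 0 to 2 in each direction. For the combined group against Smc3 del/+, with 1 higher and 0 lower, the normalized table, the replicate block and the fit of only those groups each gave 0 higher, and leaving out 1 library gave 0 to 2 in each direction. Against Flt3-ITD, leaving out 1 library gave 0 to 2 higher and 0 to 1 lower, and for the interaction 0 to 1 higher. The cause of these shifts was not tested, beyond the medians of all genes given above for the normalized table. Neither comparison of the Smc3 deletion alone called any of the 10 under any alternative run. A library left alone in its group was assumed to vary like the other groups.

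Leaving out each library for the lists of related genes was chosen after seeing the data. Replicate numbers are not stated to pair the mice, and correlations of deviations between same-numbered libraries ran from -0.113 to 0.0229. Low correlations do not show that the mice were unpaired. With the replicate block, Idh1 in the combined group against Smc3 del/+ had an adjusted p of 0.0691. With 2 mice a group, small differences are not detectable, and depth in reads is unknown.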
